A study of Mus musculus with 6 samples.

Results

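Interferon-stimulated genes are the genes that cells switch on when an interferon signals that a virus is present. Their RNA was followed in FLICs, differentiated cells grown from mouse embryonic stem (ES) cells, and in ES cells themselves. The 34 genes were a named list of antiviral effectors, signalling factors and secreted products, matched by symbol to the deposited table, and all 34 were found among its 22600 genes. The 6 RNA-seq libraries fall into 4 groups. OHT-treated FLICs (n = 1) and OHT-treated ES cells (n = 2) are labelled TRF2-/-, and untreated FLICs (n = 1) and untreated ES cells (n = 2) are labelled wild-type. Each culture was of C57BL/6 background and was grown for 96 h, and the treated ones had OHT, the tamoxifen metabolite hydroxytamoxifen, for 3 days. TRF2, encoded by Terf2, is the shelterin protein that shields chromosome ends from the DNA damage response. Since OHT was never given to cells that keep TRF2, what OHT does and what the loss does cannot be told apart. The series asks how pluripotent and differentiated cells fare without TRF2.

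Type I interferons bind a cell-surface receptor whose JAK kinases phosphorylate STAT proteins. STAT2 joins IRF9 in the complex ISGF3, which enters the nucleus and binds a promoter element, the interferon-stimulated response element (ISRE), in front of many of the genes listed here. Interferon gamma acts through another element, GAS, and is a strong inducer of the guanylate-binding proteins. Pluripotent cells are known for a weak response to interferon, and some antiviral genes are active in them without it. Cytosolic DNA, which can be released by damaged chromosomes, can start the pathway through the sensor cGAS and the adaptor STING.

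The libraries held between 23534551 and 43965309 counts. Levels are given in CPM, the counts scaled to library size with TMM factors. Where a gene had no count, up to 3 counts could have been missed, a floor for counting error alone. Before TMM scaling, that is 0.0682 to 0.127 CPM depending on the library. Terf2 was at 0.114 CPM in OHT FLICs and 8.27 CPM in untreated FLICs, and at 0.281 and 0.392 CPM in OHT ES cells, against 18.3 and 19.5 CPM in untreated ES cells. The OHT-treated ES cell libraries stood apart from each other: of 12698 genes averaging 1 CPM or more, 470 differed at least 2-fold between them, against 0 of 12149 between the untreated ones. Trp53 shows that difference, with 8.39 CPM in the first and 83.1 CPM in the second OHT library, against 299 and 345 CPM in untreated ES cells. FLICs had 7.82 CPM of Trp53 with OHT and 8.98 CPM without. The labels do not say whether the first and second ES cell cultures are the same line or clone, and the part of this difference in the results was not tested. The labels fit the markers in the main. The 6 ES cell markers summed to 59.7 and 100.4 CPM in OHT and untreated FLICs, against 3163 to 3615 CPM in the ES cell libraries. The 8 mesenchymal markers summed to 16518 and 13236 CPM in OHT and untreated FLICs, against 273 to 406 CPM in ES cells, though Thy1 and Pdgfra, of the same list, were under 1 CPM in FLICs. Of 9 leukocyte markers, 4 and 2 were detected in OHT and untreated FLICs and 4 to 6 in the ES cell libraries, with sums of 10.4 and 11.1 CPM against 32.4 to 69.0 CPM. The leukocyte-defining genes Adgre1 and Tyrobp were at 0 in all 6 libraries, and Ptprc was at 0 in all but the second OHT ES cell library, which had 0.0784 CPM.

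Few of the listed genes were abundant. Together they made up 241 and 188 CPM in OHT and untreated FLICs, 377 and 439 CPM in OHT ES cells, and 402 and 443 CPM in untreated ES cells. A single gene, Trim25, held more than any other in ES cells, and without it the sums were 235 and 183 CPM in FLICs and 190 to 214 CPM in ES cells. Between 15 and 17 of the 34 genes reached 1 CPM in a library. A filter on low counts left 27 of them, and 15535 genes in all, for testing. Since the smallest groups have 1 library, the filter asked for enough counts in only 1 library. A gene could therefore pass through the group where it was highest. Ifit1, Ifit3b, Mx1, Mx2, Usp18, Ifi44 and Cxcl10 did not pass the filter, and each had at most 11 counts in any library.

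**Figure D1:**
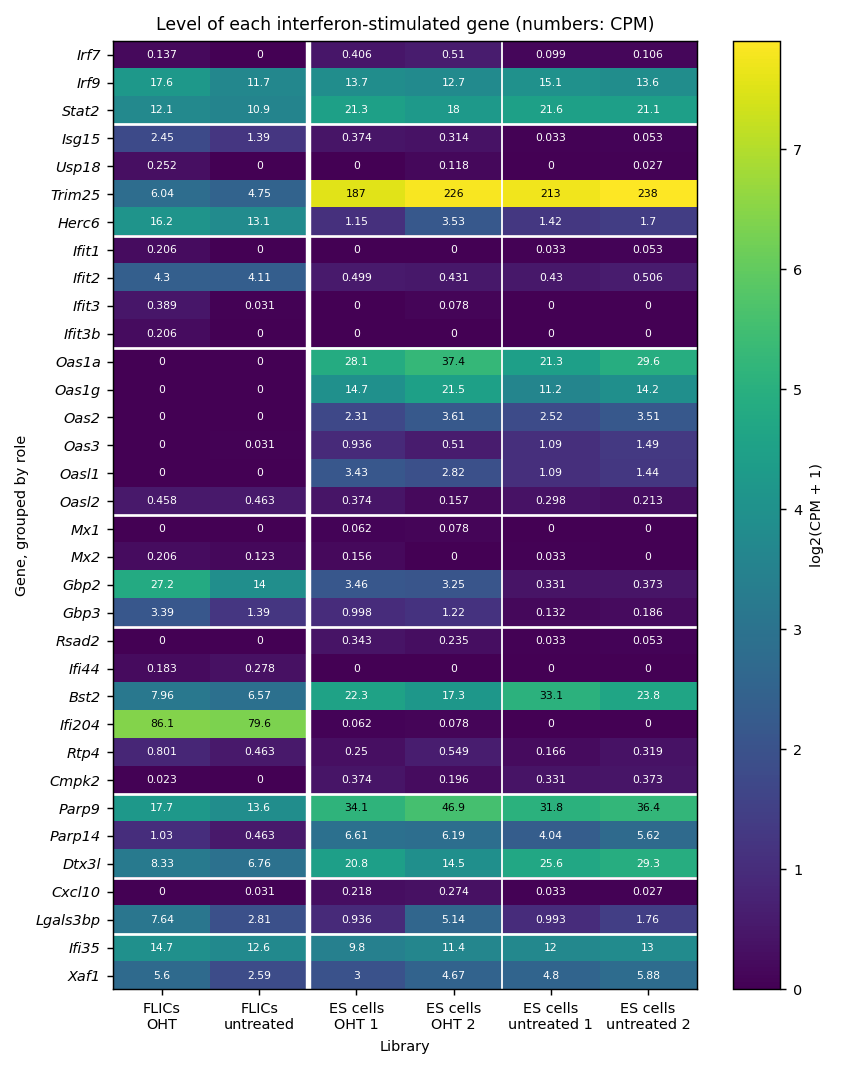
CPM of each of the 34 interferon-stimulated genes (rows, grouped by role) in each of the 6 libraries (columns), with colour on the log2(CPM + 1) scale and the CPM printed in each cell. The OAS genes other than Oasl2 are at or near 0 in the FLICs columns, while Ifi204 is at 86.1 and 79.6 CPM there and near 0 in ES cells.

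Per coding length, in TPM, which divides counts by length and scales each library to the same sum, the order of the genes differed between the cell types. In OHT FLICs the highest were Ifi204 at 55.9 TPM, Ifi35 at 20.6 TPM, Bst2 at 18.6 TPM and Gbp2 at 18.6 TPM. Untreated FLICs had the same leading genes, with Ifi204 at 51.6 TPM, Ifi35 at 17.6 TPM, Bst2 at 15.3 TPM and Gbp2 at 9.56 TPM. In OHT ES cells the highest means were Trim25 at 140.1 TPM, Bst2 at 49.8 TPM, Oas1a at 38.6 TPM and Oas1g at 20.4 TPM. In untreated ES cells they were Trim25 at 149 TPM, Bst2 at 69.3 TPM, Oas1a at 29.2 TPM and Ifi35 at 18.4 TPM. FLICs were thus led by a DNA-binding protein of the interferon-inducible PYHIN family and ES cells by a ubiquitin ligase.

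The promoters printed below carry the classical element in front of the RefSeq transcript start. In the letters below, capitals mark matches to the ISRE core GAAANNGAAA or its reverse complement TTTCNNTTTC, and each sequence runs 5′ to 3′ on the strand of the gene, upstream of that start. They are shown for the genes with the largest called differences between untreated FLICs and untreated ES cells in each direction. The gene called with OHT in ES cells is shown too. Each needed an entry in the RefSeq table for GRCm38.p6, which Ifi204 and Oas2 lacked. Oasl1, Cmpk2, Trim25 and Herc6, for example, called with smaller differences in their direction, had an entry but no ISRE letters. Gbp2 is given at chr3:142620413-142620631 on the plus strand, Isg15 at chr4:156200819-156201068, Oas1a at chr5:120907526-120907775 and Oas1g at chr5:120887614-120887863, all 3 on the minus strand.
Gbp2: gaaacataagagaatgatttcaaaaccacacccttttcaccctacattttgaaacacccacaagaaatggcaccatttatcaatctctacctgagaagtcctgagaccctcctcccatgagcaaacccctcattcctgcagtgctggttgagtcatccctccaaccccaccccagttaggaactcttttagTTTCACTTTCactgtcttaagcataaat
Isg15: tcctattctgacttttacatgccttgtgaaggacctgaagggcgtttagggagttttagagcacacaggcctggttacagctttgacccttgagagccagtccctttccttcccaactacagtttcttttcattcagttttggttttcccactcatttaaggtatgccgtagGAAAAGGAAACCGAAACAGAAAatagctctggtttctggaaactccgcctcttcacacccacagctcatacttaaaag
Oas1a: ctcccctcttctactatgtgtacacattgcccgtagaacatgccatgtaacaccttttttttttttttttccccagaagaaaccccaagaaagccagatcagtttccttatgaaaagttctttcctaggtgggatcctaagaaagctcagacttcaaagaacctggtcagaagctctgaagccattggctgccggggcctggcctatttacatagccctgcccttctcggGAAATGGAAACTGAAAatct
Oas1g: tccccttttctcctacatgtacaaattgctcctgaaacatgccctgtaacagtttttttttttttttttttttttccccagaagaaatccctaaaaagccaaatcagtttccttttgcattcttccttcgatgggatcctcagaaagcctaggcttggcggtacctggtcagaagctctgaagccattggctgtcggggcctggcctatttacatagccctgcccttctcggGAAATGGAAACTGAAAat
Isg15 had 3 overlapping matches, of which the first began 78 bases before the start. Gbp2 had a single match, on the opposite strand and 59 bases before the start. Its printed letters stop 31 bases short of that start, so the distance is not counted from the last letter shown. GENCODE puts the start of Gbp2 further upstream, at 142620602, so by that annotation the match lies just inside the gene. Oas1a and Oas1g had the same run of letters, beginning 20 and 18 bases before their starts, and their windows, which also hold bases after the start, were identical at 261 of 294 aligned bases (88.8%).

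Over windows of 250 bases before to 50 bases after each start, 13 of the 26 listed genes with an entry held the ISRE letters on either strand (50%). Among all 32851 windows the share was 3.44%, and among 27025 genes it was 3.99%. The GAS letters TTCNNNGAA, which read the same on both strands, were found for 4 of the 26 genes (15.4%), namely Oas1a, Bst2, Ifi35 and Ifit2, and for 9.55% of all genes. In Bst2 the GAS letters overlapped an ISRE match. Genes with the ISRE letters were found among those higher in untreated FLICs (3 of 5), lower there (5 of 9), not called (2 of 8) and not tested (3 of 4). Matches describe letters and are not evidence of binding.

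**Figure D2:**
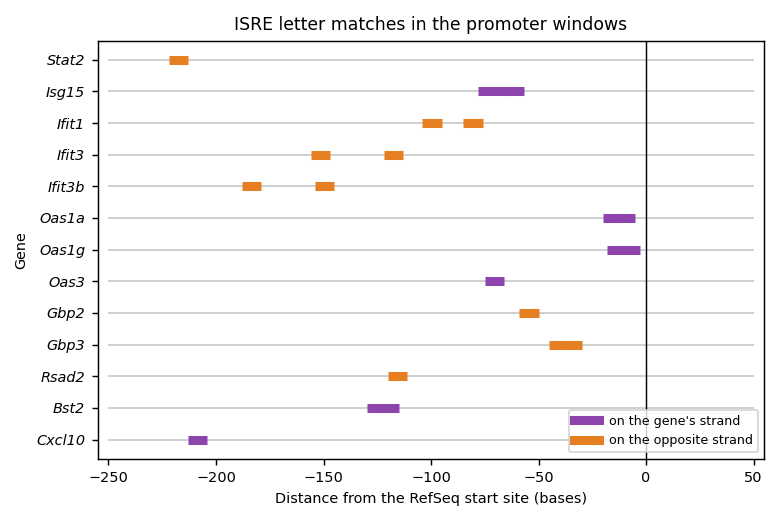
Positions of the ISRE letters in the promoter windows of the 13 genes that hold them, as distance in bases from the RefSeq start (0, vertical line), with colour for the strand of the match. The matches lie between 222 bases before the start (Stat2) and just before it (Oas1g).

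Of the listed genes, Ifi204, Gbp2, Gbp3, Isg15, Ifit2 and Herc6 were higher in FLICs, while Trim25 and most OAS genes were lower. Against untreated ES cells, untreated FLICs had 6 of the 27 tested genes higher and 12 lower at an adjusted p under 0.05 (edgeR's quasi-likelihood test, Benjamini-Hochberg over all genes), where 26.2% of all genes were called higher and 28.7% lower. Against OHT ES cells, OHT FLICs had 6 higher and 13 lower, where 28.4% and 29.3% of all genes were called. The same 6 genes were higher and the same 12 lower in both comparisons, and none was called in opposite directions. These comparisons share no library, but they share the estimate of spread. The median log2 fold change of the 27 genes was -1.04 in the untreated comparison, beside -0.11 over all genes, and -0.70 in the OHT comparison, beside -0.07. With the genes that were at 0 in a group set at the bound that 3 counts allow, the median of the untreated comparison was -0.30 and that of the OHT comparison -0.70. Without the count filter the median of the OHT comparison was 0.47. The single FLICs library of each condition was assumed to vary like the ES cell libraries. In such bulk libraries, fewer cells of a type and less RNA per cell cannot be told apart.

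Ifi204, on chromosome 1 (173747293 to 173766943), encodes a PYHIN protein that binds DNA and is a counterpart of human IFI16. It had 3763 and 2578 counts in OHT and untreated FLICs, or 86.1 and 79.6 CPM, against 2 and 2 counts in OHT ES cells and 0 and 0 counts in untreated ES cells. Untreated FLICs were at least 1798-fold higher than untreated ES cells, measured against 3 counts over the ES cell pair (adjusted p = 4.3e-05, edgeR). The corresponding log2 fold change with OHT was 10.20 ± 0.29 (SE; adjusted p = 4.9e-05). Reads that near-identical relatives share with Ifi204 may have been split among them, in a way that is not given in the sources used here. Another 3 family members, chosen after their values were seen, were likewise found in FLICs and nearly absent from ES cells. Mndal had 19.2 and 16.2 CPM in OHT and untreated FLICs against at most 0.235 CPM in ES cells. Ifi205 had 18.4 and 17.7 CPM in OHT and untreated FLICs against at most 0.0784 CPM, and Ifi207 had 2.13 and 2.01 CPM against 0 in all 4 ES cell libraries. Aim2, the inflammasome sensor of the same family, ran the other way, at 0.686 and 0.556 CPM in OHT and untreated FLICs against 68.9 to 81.7 CPM in ES cells.

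Gbp2 and Gbp3, of the guanylate-binding proteins, large GTPases that coat and break open the vacuoles of intracellular pathogens, were also higher in FLICs. Gbp2, whose promoter is printed above, lies on chromosome 3 (142620602 to 142638008). It had 27.2 CPM in OHT FLICs and 14.0 CPM in untreated FLICs, against 3.46 and 3.25 CPM in OHT ES cells and 0.331 and 0.373 CPM in untreated ES cells. All FLICs values lay above all ES cell values, with log2 fold changes of 3.02 ± 0.21 with OHT (SE; adjusted p = 0.00017) and 5.30 ± 0.25 without (adjusted p = 6.0e-05), both by edgeR. Gbp3, nearby at 142560026 to 142573209, had 3.39 and 1.39 CPM in OHT and untreated FLICs, against 0.998 and 1.22 CPM in OHT ES cells and 0.132 and 0.186 CPM in untreated ES cells. Its log2 fold change was 1.61 ± 0.37 with OHT and 3.08 ± 0.45 without (SE; edgeR adjusted p = 0.013 and 0.0027). With OHT that call was lost without either untreated ES cell library (adjusted p = 0.051 each) and with DESeq2 (adjusted p = 0.13). Gbp4, a relative that is not one of the 34 genes and was chosen after its values were seen, ran the other way. It had 0.183 and 0.247 CPM in OHT and untreated FLICs, against 1.09 and 0.745 CPM in OHT ES cells and 0.761 and 0.586 CPM in untreated ES cells, and was called lower with OHT (edgeR adjusted p = 0.022) but not without (0.096). The other GTPases of the list, Mx1 and Mx2, had 0 to 9 counts in every library.

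Within the ISG15 system, the members moved apart. Isg15, the ubiquitin-like protein that is conjugated to other proteins in infected cells, had 2.45 and 1.39 CPM in OHT and untreated FLICs, against 0.374 and 0.314 CPM in OHT ES cells and 0.0331 and 0.0532 CPM in untreated ES cells. Its log2 fold change was 2.81 ± 0.43 with OHT and 4.86 ± 0.57 without (SE; edgeR adjusted p = 0.0029 and 0.0011). Herc6, the main ligase for ISG15 in the mouse, had 16.2 and 13.1 CPM in OHT and untreated FLICs, against 1.15 and 3.53 CPM in OHT ES cells and 1.42 and 1.70 CPM in untreated ES cells, with adjusted p of 0.0072 and 0.0059. Trim25, a ubiquitin ligase that activates the RNA sensor RIG-I, was far lower in FLICs, at 6.04 and 4.75 CPM with and without OHT, against 187 and 226 CPM in OHT ES cells and 213 and 238 CPM in untreated ES cells. Its log2 fold change was -5.09 ± 0.26 with OHT and -5.57 ± 0.27 without (SE; edgeR adjusted p = 7.7e-05 and 6.6e-05). Usp18, which removes ISG15 from proteins and restrains the interferon receptor, had 11 and 0 counts in OHT and untreated FLICs, 0 and 3 in OHT ES cells and 0 and 1 in untreated ES cells.

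**Figure D3:**
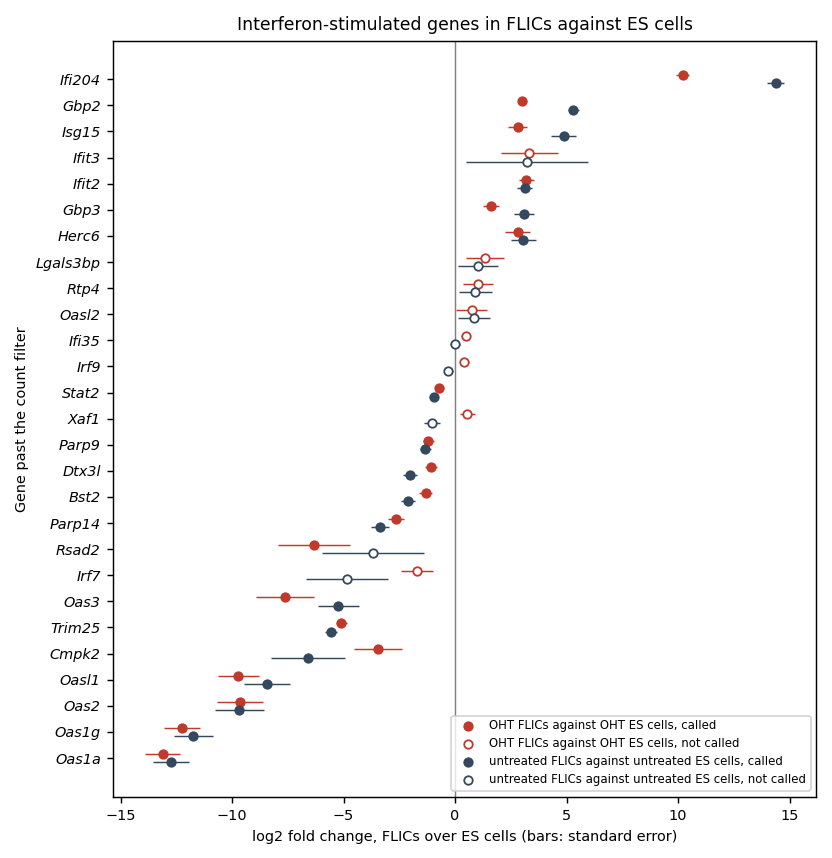
log2 fold change of FLICs over ES cells for the 27 tested genes, with OHT (red) and without (dark), bars giving the standard error; filled points passed an adjusted p of 0.05. Ifi204, Gbp2, Isg15, Ifit2, Gbp3 and Herc6 are called on the right in both comparisons, and the OAS genes other than Oasl2 on the left; the fitted values of genes at 0 in a group depend on the prior count.

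The OAS genes were expressed in ES cells and all but missing in FLICs. They encode oligoadenylate synthetases, which answer double-stranded RNA by making the messenger that activates RNase L. Oas1a, on chromosome 5 (120896256 to 120907521), had 0 counts in both OHT and untreated FLICs, against 28.1 and 37.4 CPM in OHT ES cells and 21.3 and 29.6 CPM in untreated ES cells. FLICs were at least 478-fold lower with OHT and at least 274-fold lower without, measured against 3 counts in the FLICs library (edgeR adjusted p = 0.00012 and 0.00015). Oas1g, next to it at 120876142 to 120887613, also had 0 counts in both FLICs libraries, against 14.7 and 21.5 CPM in OHT ES cells and 11.2 and 14.2 CPM in untreated ES cells. The coding sequences and promoters of the pair are alike, so reads may have been split between them, but their sum was also 0 counts in both FLICs libraries, against 1372 and 1504 counts in OHT ES cells and 979 and 1643 counts in untreated ES cells. Oas2 had 0 counts in both FLICs libraries, against 2.31 and 3.61 CPM in OHT ES cells and 2.52 and 3.51 CPM in untreated ES cells. Oas3 had 0 and 1 counts in OHT and untreated FLICs, against 0.936 and 0.510 CPM in OHT ES cells and 1.09 and 1.49 CPM in untreated ES cells. Oasl1, which lacks synthetase activity and represses translation of Irf7 in the mouse, had 0 counts in both FLICs libraries, against 3.43 and 2.82 CPM in OHT ES cells and 1.09 and 1.44 CPM in untreated ES cells. These 5 genes were called lower in both comparisons, with adjusted p from 0.00012 to 0.0054. Oasl2, the remaining member, was scarce throughout, with 0.458 and 0.463 CPM in OHT and untreated FLICs, 0.374 and 0.157 CPM in OHT ES cells and 0.298 and 0.213 CPM in untreated ES cells, and was not called (adjusted p = 0.39 and 0.34).

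The genes for the IFIT proteins, which bind viral RNA and restrain its translation, were nearly silent outside Ifit2. Ifit2 had 4.30 and 4.11 CPM in OHT and untreated FLICs, against 0.499 and 0.431 CPM in OHT ES cells and 0.430 and 0.506 CPM in untreated ES cells. Its log2 fold change was 3.19 ± 0.34 with OHT and 3.12 ± 0.34 without (SE; edgeR adjusted p = 0.00078 and 0.00088). Ifit1, Ifit3 and Ifit3b had 9, 17 and 9 counts in OHT FLICs and 0, 1 and 0 counts in untreated FLICs, and each had at most 2 counts in any ES cell library. Ifit3 and Ifit3b are near-identical copies, and their sum was 26 counts in OHT FLICs and 1 count in untreated FLICs, against 0 to 2 counts in ES cells. Ifit3 was not called (adjusted p = 0.081 with OHT and 0.36 without).

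The PARP9-DTX3L group was lower in FLICs in both conditions. Parp9 and the ubiquitin ligase Dtx3l act as a complex in ADP-ribosylation and DNA damage signalling, and Parp14 is a related ADP-ribosyltransferase. Parp9 had 17.7 and 13.6 CPM in OHT and untreated FLICs, against 34.1 and 46.9 CPM in OHT ES cells and 31.8 and 36.4 CPM in untreated ES cells. Dtx3l had 8.33 and 6.76 CPM in OHT and untreated FLICs, against 20.8 and 14.5 CPM in OHT ES cells and 25.6 and 29.3 CPM in untreated ES cells. The annotated genes overlap on opposite strands and the counting strand is not given in the sources used here, so reads of the overlap cannot be told apart. Parp14 differed most, at 1.03 and 0.463 CPM in OHT and untreated FLICs, against 6.61 and 6.19 CPM in OHT ES cells and 4.04 and 5.62 CPM in untreated ES cells, or -2.63 ± 0.36 with OHT and -3.37 ± 0.40 without as log2 fold change (SE; edgeR adjusted p = 0.0018 and 0.0012).

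The remaining effectors split by gene. Bst2, or tetherin, which holds budding virus particles at the cell surface, had 7.96 and 6.57 CPM in OHT and untreated FLICs, against 22.3 and 17.3 CPM in OHT ES cells and 33.1 and 23.8 CPM in untreated ES cells (edgeR adjusted p = 0.013 and 0.0028). Cmpk2, a mitochondrial nucleotide kinase, had 1 and 0 counts in OHT and untreated FLICs, against 12 and 5 counts in OHT ES cells and 10 and 14 counts in untreated ES cells. It was called lower in both comparisons (adjusted p = 0.036 and 0.018), but not with DESeq2 (adjusted p = 0.19 and 0.064) and not without either untreated ES cell library (adjusted p from 0.069 to 0.11). Rsad2, or viperin, which makes a chain-terminating nucleotide, had 0 counts in both FLICs libraries, against 11 and 6 counts in OHT ES cells and 1 and 2 counts in untreated ES cells. It passed the count filter only through OHT ES cells, the group where it was highest. It was called lower in OHT FLICs (adjusted p = 0.019), but not with DESeq2 (0.13) and not without either untreated ES cell library (0.060 and 0.057). Ifi44 had 8 and 9 counts in OHT and untreated FLICs and 0 in every ES cell library. Rtp4, Lgals3bp, Xaf1 and Ifi35 were not called in either comparison.

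Irf9 and Stat2, components of ISGF3, were measured in each group. Irf9 had 17.6 and 11.7 CPM in OHT and untreated FLICs, against 13.7 and 12.7 CPM in OHT ES cells and 15.1 and 13.6 CPM in untreated ES cells, and it was not called (edgeR adjusted p = 0.12 and 0.26). It overlaps Rnf31 on the same strand, so part of its count may belong to that gene. Stat2 had 12.1 and 10.9 CPM in OHT and untreated FLICs, against 21.3 and 18.0 CPM in OHT ES cells and 21.6 and 21.1 CPM in untreated ES cells. It was called lower, by a log2 fold change of -0.70 ± 0.21 with OHT and -0.96 ± 0.21 without (SE; adjusted p = 0.031 and 0.011). That call was lost without either untreated ES cell library (adjusted p from 0.086 to 0.13). Irf7, the factor that amplifies interferon production, had 6 and 0 counts in OHT and untreated FLICs, against 13 and 13 counts in OHT ES cells and 3 and 4 counts in untreated ES cells, and was not called (adjusted p = 0.088 and 0.069).

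With OHT, ES cells had more RNA of the guanylate-binding protein Gbp2, and a handful of other scarce genes stood higher without passing the test. Of the 27 tested genes, 1 was called higher and 0 lower by edgeR, where 0.521% of all genes were called higher and 0.0129% lower. DESeq2 called 2 higher, Gbp2 and Gbp3. Gbp2 had 111 and 83 counts in OHT ES cells, or 3.46 and 3.25 CPM, against 10 and 14 counts, or 0.331 and 0.373 CPM, in untreated ES cells. Its mean was 3.36 ± 0.15 CPM with OHT and 0.352 ± 0.029 CPM without (SD, n = 2 each), which is 3.24 ± 0.23 as log2 fold change (SE; edgeR adjusted p = 0.011). Each OHT library lay above each untreated one by far more than the spread within a pair. Without the first untreated ES cell library the log2 fold change of Gbp2 was 3.16 (adjusted p = 0.076), and without the second it was 3.33 (adjusted p = 0.079). Gbp2b, the adjoining copy of the gene and not on the list, was chosen after its values were seen. It had 3.00 and 2.08 CPM in OHT ES cells, against 0.166 and 0.186 CPM in untreated ES cells (log2 fold change 3.82, edgeR adjusted p = 0.021).

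With OHT in ES cells, 8 genes of the list had an unadjusted p under 0.05, Gbp2 among them, where 2841 of 15535 genes did. Gbp3 had 0.998 and 1.22 CPM in OHT ES cells against 0.132 and 0.186 CPM in untreated ones, which is 2.75 ± 0.41 as log2 fold change (SE; edgeR adjusted p = 0.067). The corresponding value for Isg15 was 2.87 ± 0.59 (adjusted p = 0.12), from 12 and 8 counts with OHT against 1 and 2 without. For Oasl1 it was 1.30 ± 0.32 (adjusted p = 0.15), from 110 and 72 counts with OHT against 33 and 54 without. Irf7 followed with 13 and 13 counts against 3 and 4 (adjusted p = 0.18), Rsad2 with 11 and 6 counts against 1 and 2 (adjusted p = 0.20), and Ifi204 with 2 and 2 counts against 0 and 0 (adjusted p = 0.17). In each of these 6 genes the OHT libraries lay above the untreated ones. For Irf7 and Rsad2, OHT ES cells were also the only group through which the gene passed the count filter. Dtx3l lay the other way, with 20.8 and 14.5 CPM in OHT ES cells against 25.6 and 29.3 CPM in untreated ones (log2 fold change -0.64 ± 0.22 (SE), adjusted p = 0.22).

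**Figure D4:**
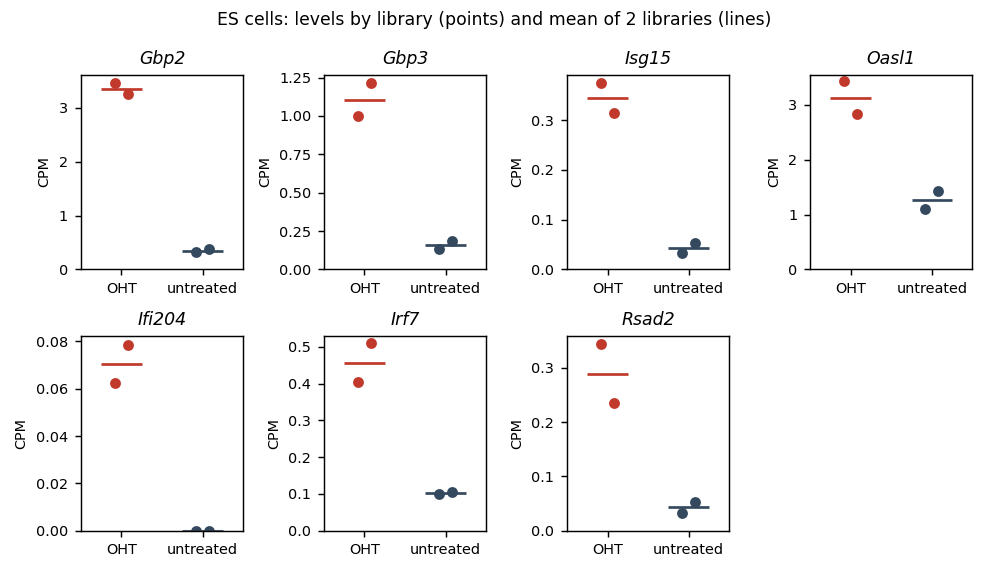
CPM of the 7 genes with an unadjusted p under 0.05 and a higher value in OHT ES cells, by library (points) with the mean of 2 libraries (line), OHT left of untreated; each panel has its own axis from 0. The OHT points lie above the untreated points in every panel, while only Gbp2 passes an adjusted p of 0.05 and the levels of Isg15, Irf7, Rsad2 and Ifi204 stay under 1 CPM.

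Over the list, the OHT libraries were both higher than the untreated ones for 9 of the 27 tested genes and both lower for 5, where the same held for 25.2% and 27.6% of all genes. The list's median log2 fold change stood at 0.37, or at 0.25 if the 2 genes at 0 in untreated ES cells are set at their bound, beside -0.01 over all genes. Without the count filter the median was 0.38, beside 0.01 over all genes. It ran from 0.04 without the second OHT library to 0.63 without the second untreated one. Among the untested genes, Cxcl10, a chemokine that attracts T cells, had 7 and 7 counts in OHT ES cells against 1 and 1 in untreated ones, and Mx1 had 2 and 2 against 0 and 0. Among the abundant members, Trim25 had 187 and 226 CPM with OHT against 213 and 238 CPM without (adjusted p = 0.69), and Stat2 and Irf9 each had an adjusted p of 0.73. Lgals3bp, a secreted galectin-binding glycoprotein, had 0.936 and 5.14 CPM in the OHT libraries against 0.993 and 1.76 CPM in the untreated ones, and Herc6 had 1.15 and 3.53 CPM against 1.42 and 1.70 CPM. They were the only 2 of 17 listed genes averaging 1 CPM or more that differed at least 2-fold between the OHT libraries. Without the first OHT library 13 genes of the list were called (10 higher and 3 lower, where 40.2% of all genes were), without the second 7 (5 higher and 2 lower, where 28.7% were), and without either untreated library 0.

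In FLICs, where each condition has 1 library and no test was made, the 15 listed genes that averaged 1 CPM or more all had a higher value with OHT, some by a small margin. All had a positive log2(CPM + 1) difference, with a median of 0.29, beside 6649 of 11789 genes and a median of 0.03 over all genes. Past a 2-fold difference on that scale were 1 gene with a higher and 0 with a lower value, where 0.424% and 0.102% of all genes were. That gene was Lgals3bp, on chromosome 11 (118392751 to 118402092), with 334 counts or 7.64 CPM in OHT FLICs against 91 counts or 2.81 CPM in untreated FLICs, a ratio of 2.72 (95% interval of counting error 2.15 to 3.47). Gbp3 was at 3.39 CPM with OHT and 1.39 CPM without, a ratio of 2.44 (1.74 to 3.48), and Xaf1, an antagonist of the apoptosis inhibitor XIAP, at 5.60 CPM with OHT and 2.59 CPM without, a ratio of 2.16 (1.68 to 2.80). Gbp2 was at 27.2 CPM with OHT and 14.0 CPM without, a ratio of 1.94 (1.74 to 2.16), and Irf9 at 17.6 CPM and 11.7 CPM, a ratio of 1.51 (1.33 to 1.71). Ifi204, the most abundant, was at 86.1 CPM with OHT and 79.6 CPM without, a ratio of 1.08 (1.03 to 1.14). For Stat2 the ratio was 1.11 (0.964 to 1.27) and for Ifit2 1.05 (0.835 to 1.32), so that these intervals include a ratio of 1. The intervals leave out the spread between cultures, which 1 library cannot show. Over the same pair, the 6 mesenchymal markers averaging 1 CPM or more were also all higher with OHT (median 0.59), and the ES cell markers were lower (59.7 CPM summed with OHT and 100.4 CPM without). Their part in the result was not tested.

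**Figure D5:**
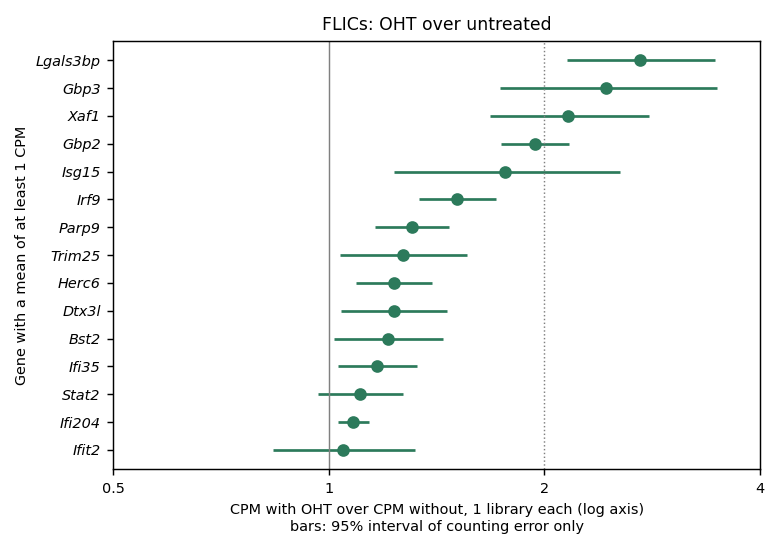
Ratio of the CPM in OHT FLICs to that in untreated FLICs (log axis, 1 library each) for the 15 genes averaging 1 CPM or more; bars are 95% intervals of counting error only, and the lines stand at 1 and 2. All 15 points lie right of 1, from Ifit2 at 1.05 to Lgals3bp at 2.72, and the bars of Ifit2 and Stat2 cross 1.

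The response to OHT was compared between the cell types as the difference in FLICs minus that in ES cells. By edgeR 0 of 27 genes passed an adjusted p of 0.05, where 0% of all genes did, and DESeq2 called 0 as well. An unadjusted p under 0.05 was found for 5, and for 1057 of 15535 genes. Gbp2 had the smallest, with an interaction of -2.28 ± 0.34 (log2, SE; adjusted p = 0.64), and Isg15 (-2.05) also leaned towards a more positive difference in ES cells. Xaf1 (1.60) and Irf9 (0.71) leaned towards FLICs. The remaining gene was Ifi204, whose fitted value depends on the prior count, since it had 0 counts in untreated ES cells. Without the first OHT ES cell library 7 genes were called and without the second 4, where 18.3% and 13.4% of all genes were.

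Upstream of these genes, no interferon RNA was found at a level that could be tested. None of 10 ligand genes passed the count filter: Ifnb1, Ifna1, Ifna2, Ifna4, Ifna5 and Ifnl3 were at 0 in all 6 libraries, and Ifnk, Ifne, Ifng and Ifnl2 were at no more than 0.132 CPM in any. All 11 genes listed for receptors, JAK kinases and STATs passed the count filter, and 0 were called with OHT in ES cells. In untreated FLICs 6 were called higher and 2 lower than in untreated ES cells, and with OHT 7 higher and 1 lower. For this and the following lists, the shares of all genes are 26.2% higher and 28.7% lower without OHT, and 28.4% higher and 29.3% lower with it. The receptor and kinase genes named next all lay higher in FLICs, and those called lower are not named. The lowest log2 fold change among the 11 genes was -1.24 with OHT and -1.61 without. Values of the type I interferon receptor are not given here. Il10rb, a subunit of the lambda interferon receptor, had 21.8 and 19.3 CPM in OHT and untreated FLICs, against 0.686 and 1.37 CPM in OHT ES cells and 0.662 and 0.905 CPM in untreated ES cells. Ifngr2, of the interferon gamma receptor, had 73.2 and 71.9 CPM in OHT and untreated FLICs, against 2.53 and 4.04 CPM in OHT ES cells and 4.14 and 5.51 CPM in untreated ES cells. Its partner Ifngr1 had a log2 fold change of 3.27 with OHT and 3.69 without (edgeR adjusted p = 0.00013 and 9.6e-05), and the kinase Jak2 of 2.70 and 2.46 (adjusted p = 0.00045 and 0.00064).

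Of 7 further interferon regulatory factors, 6 were tested and 0 were called with OHT in ES cells. In FLICs 2 were called higher and 1 lower without OHT, and 2 higher and 2 lower with it. Irf2, which binds the same element and can repress it, was at 18.9 and 14.1 CPM in OHT and untreated FLICs, against 0.530 and 0.588 CPM in OHT ES cells and 0.199 and 0.319 CPM in untreated ES cells (edgeR adjusted p = 0.00011 and 9.1e-05). Of 7 negative regulators, 0 were called with OHT in ES cells, and in FLICs 2 were lower without OHT and 3 with it, led by the phosphatase Ptpn6 at 12.1 and 8.27 CPM in OHT and untreated FLICs, against 39.4 and 38.5 CPM in OHT ES cells and 52.9 and 49.0 CPM in untreated ES cells. Of 11 nucleic acid sensors and adaptors, 0 were called with OHT in ES cells, and 4 were higher and 3 lower in FLICs in each comparison, near the shares of all genes. The genes named next all lay lower in FLICs, and the 4 called higher are not named. The largest positive log2 fold change in this list was 3.01 with OHT and 1.76 without. Tmem173, the adaptor STING, had 0.526 and 0.216 CPM in OHT and untreated FLICs, against 10.3 and 8.39 CPM in OHT ES cells and 9.30 and 8.33 CPM in untreated ES cells. Zbp1, a sensor of left-handed nucleic acids, had log2 fold changes of -5.61 with OHT and -3.19 without (edgeR adjusted p = 0.000415 and 0.0019), and Ddx58, the RNA sensor RIG-I, of -1.71 and -2.08 (adjusted p = 0.0048 and 0.0027).

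Among 35 further interferon-stimulated genes, 29 were tested, and the split between cell types was again in both directions. Untreated FLICs had 11 higher and 11 lower, and OHT FLICs 11 higher and 13 lower, to be read against the shares of all genes given above. With OHT in ES cells 0 were called by edgeR, and 7 had an unadjusted p under 0.05, where 2841 of 15535 genes did. Uba7, the enzyme that activates ISG15 for conjugation, had 140 and 60 counts in OHT and untreated FLICs, against 1 and 0 counts in OHT ES cells and 0 and 0 in untreated ES cells, which puts untreated FLICs at least 41.8-fold above untreated ES cells, whose pair is taken at 3 counts in sum. Ifi47, an immunity-related GTPase, had 244 and 114 counts in OHT and untreated FLICs, 0 and 1 counts in OHT ES cells and 1 and 0 in untreated ES cells. Phf11d had 4 and 3 counts in OHT and untreated FLICs, against 855 and 1203 counts in OHT ES cells and 1003 and 1446 counts in untreated ES cells. By that 2-fold rule, Nmi and Ifi27 were higher in OHT FLICs than in untreated FLICs, at 5.51 CPM against 1.88 CPM and at 2.06 CPM against 0.432 CPM, and 17 of the 20 genes averaging 1 CPM or more had a positive difference there, beside 6649 of 11789 genes in all. The median difference of those 20 genes was 0.24 on the log2(CPM + 1) scale, beside 0.03 over all genes.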

How the data were processed

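The authors deposited whole-number counts of reads per Ensembl gene in a single table, without normalization, with a column for each of 6 libraries and one for gene length. Salmon, DESeq2 and GRCm38 are named in the submitters' processing notes, with no version and no role. The settings, the annotation and the strand used in counting are not stated. Multiples of 3 made up 77.6% of the deposited lengths, as in coding lengths. The labels' protocols name the RNeasy Mini kit for RNA and the TruSeq Stranded Total RNA LT kit for libraries.

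Symbols were found for 22509 of the 22600 genes, with positions from GENCODE M21 (GRCm38). The counts were analysed in R 4.3.3 with edgeR 4.0.16: after filterByExpr (15535 genes kept) and TMM scaling, a quasi-likelihood fit with a mean for each of the 4 groups was made over the 6 libraries, and Benjamini-Hochberg adjusted p-values under 0.05 were called. The fit gives no standard error, so the SE printed is the absolute log2 fold change divided by the square root of the test's F value. Residual degrees of freedom were 2, all from ES cell pairs, with a common biological coefficient of variation of 18.5%. The steps were tested on simulated data. The labels do not say that replicate libraries are separate cultures, and a p-value here reflects no more than their spread, which may be technical. Libraries of a pair were not duplicates (chi-square per degree of freedom 66.3 for OHT and 13.2 for untreated ES cells). OHT in FLICs had no test: a gene was counted at a 2-fold difference in log2(CPM + 1) and a mean of 1 CPM or more. TPM were computed from counts and deposited lengths. Motif letters were searched in the RefSeq promoter table of GRCm38.p6.

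The members, lists and tests were chosen with earlier results of these data known. Beyond the 34 members, the rule named Terf2, up to 4 genes of a pathway list per comparison, and the promoters of the 3 largest called differences each way (Ifi204 and Oas2 had no entry); Trp53 was named as a check of the libraries. The alternatives were DESeq2 1.42.0, relative log expression factors, other count filters, each ES cell library left out, a replicate block, the ES cell libraries alone, an additive model and, for FLICs, other pseudocounts and minimum levels.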

Additional observations from a re-analysis of the deposited data

Results flagged for a closer look

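In 2 genes below the count filter, each ES cell library and each FLICs library moved in opposite directions with OHT. For Ifit1 the difference on the log2(CPM + 1) scale was larger in FLICs than in ES cells by 0.33, from 9 and 0 counts in OHT and untreated FLICs, and 0 and 0 counts in OHT ES cells against 1 and 2 in untreated ES cells. For Cxcl10 the difference in FLICs minus that in ES cells was -0.32, from 0 and 1 counts in OHT and untreated FLICs, and 7 and 7 counts in OHT ES cells against 1 and 1 in untreated ES cells. Neither difference was tested, and nearly all of these counts lie close to the limit that a count of 0 allows.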

How the results depend on the processing

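Relative log expression scaling changed none of the counts of calls, which were 1 with OHT in ES cells, 18 in untreated FLICs against untreated ES cells, 19 in OHT FLICs against OHT ES cells, 0 for the difference in response and 1 by the size rule in FLICs. With OHT in ES cells the count was 2 with DESeq2 and 2 without a count filter, which both added Gbp3. It ran from 0 to 13 when each ES cell library was left out, and was 1 from the ES cell libraries alone. With the replicate block it was 4 (Gbp2, Gbp3, Isg15 and Oasl1), where 7.76% of all genes were called. The labels give same-numbered ES cell libraries a shared number but do not say that they share a culture. Over these 2 pairs the deviations correlated at 0.35. The block moved the cell type counts to 20 without OHT and 23 with it, where 60.3% and 62.8% of all genes were called instead of 54.9% and 57.7%. A filter of 5 CPM in 2 libraries left fewer genes to test and gave 11 calls in each cell type comparison, where 57.7% of all genes left were called without OHT and 58.1% with it. Leaving out each ES cell library gave 16 to 21 calls without OHT and 15 to 24 with it, while the share of all genes called ran from 34.6% to 78.4% and from 44.1% to 77.2%. For the difference in response it gave 0 to 7 calls. A pseudocount of 0.5 gave 2 genes past the size rule in FLICs, with Gbp3 as the second. The median log2 fold change of the listed genes in the OHT comparison of the cell types turned, at 0.47 without a count filter and -0.70 with it, and was -0.16 without the first and -0.28 without the second OHT ES cell library. That of the difference in response was 0.12 and turned to -0.05 without the second untreated and -0.16 without the first OHT ES cell library. Where leaving out a library moved a count, the cause was not tested. The depth limits what can be said of the 7 untested genes.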
